A study of Mus musculus with 36 samples.

Results

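The genes described here are 8 markers of reactive astrocytes, chosen by gene symbol from the deposited table of hippocampal RNA: Gfap, Vim, Serpina3n, Lcn2, Timp1, Osmr, Cd44 and S1pr3. They are 8 of 36172 gene entries, and each matched 1 entry. PolyA RNA came from mice of genotype Cx3cr1-NuTRAP, in which a cre recombinase that tamoxifen induces is driven from Cx3cr1, a chemokine receptor gene active in microglia and other brain macrophages, and tags the ribosomes of those cells. Astrocytes are not the cells that this cre is meant to tag. The inputs were whole-tissue hippocampal RNA set aside before the pulldown of tagged ribosomes (translating ribosome affinity purification, TRAP). They came from 10 animals induced early and collected at 6 months (5 females, 5 males, called young), 12 induced early and collected at 22 months (7 females, 5 males, called old early), and 7 induced late and collected at 22 months (5 females, 2 males, called old late). The 7 TRAP libraries were made from the same 7 old late animals. All groups carry the same genotype and all were induced, so no animal without induction entered any comparison. The series was designed to test how the age at induction affects the model, and the ages at induction are not given in the labels used here.

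Astrocytes respond to injury, infection, protein deposits and age by a graded change of state called reactivity, in which the intermediate filaments of the cytoskeleton expand and secreted and receptor proteins are induced. Cytokines of the interleukin 6 family, among them oncostatin M, act on astrocytes through the gp130 receptor chain and the transcription factor STAT3, which is needed for the full rise of Gfap after injury. In the hippocampus Gfap-positive astrocytes are dense even in the healthy adult, and their Gfap content is known to increase with age. None of the 8 genes is restricted to astrocytes: Vim, Cd44 and Timp1 are also made by vascular, meningeal or myeloid cells, and Lcn2 by neutrophils and choroid plexus.

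The 3 most abundant genes of the group are shown by the sequence around their start of transcription, since they had the highest CPM levels and rose in both age comparisons described below, and each held at least 1 of the motifs searched. The sequences are 270 bases long, from 250 bases before the RefSeq start to 20 bases after it, on the strand of the gene in build GRCm38.p6, and capitals mark the matches to 4 motifs. Gfap lies at chr11:102897181-102897450 on the minus strand, Vim at chr2:13574061-13574330 on the plus strand, and Serpina3n at chr12:104406458-104406727 on the plus strand.
Gfap: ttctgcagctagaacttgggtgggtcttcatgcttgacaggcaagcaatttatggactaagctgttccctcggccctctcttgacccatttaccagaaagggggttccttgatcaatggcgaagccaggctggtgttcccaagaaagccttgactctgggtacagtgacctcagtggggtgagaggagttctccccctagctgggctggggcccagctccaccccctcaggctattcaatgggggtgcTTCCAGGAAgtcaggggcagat
Vim: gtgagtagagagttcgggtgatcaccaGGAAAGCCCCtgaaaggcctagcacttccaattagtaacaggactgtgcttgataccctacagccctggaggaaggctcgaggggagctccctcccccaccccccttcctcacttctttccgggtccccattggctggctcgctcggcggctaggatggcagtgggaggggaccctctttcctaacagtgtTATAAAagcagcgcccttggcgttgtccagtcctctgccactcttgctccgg
Serpina3n: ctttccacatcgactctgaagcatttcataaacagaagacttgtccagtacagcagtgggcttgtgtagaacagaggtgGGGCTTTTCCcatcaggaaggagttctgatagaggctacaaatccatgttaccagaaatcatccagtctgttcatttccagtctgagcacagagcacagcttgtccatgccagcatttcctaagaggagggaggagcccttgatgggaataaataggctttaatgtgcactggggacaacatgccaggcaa

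The motifs searched on both strands were the STAT site TTCNNNGAA, the AP-1 site TGANTCA, the NF-kappaB site (GGG, any 2 bases, TTTCC) and the TATA box TATAAA, and none of the matches shown overlapped another. Gfap held 1 STAT match that spans its start, from position -2 to 7, where position 1 is the first transcribed base. Of all 32851 windows of this length, 7.58% held the STAT motif. Vim held an NF-kappaB match on the opposite strand from -223 and a TATA box from -32. Serpina3n held an NF-kappaB match from -171. The NF-kappaB motif was found in 1.504% and the TATA box in 12.87% of all windows. The windows of Lcn2, Cd44, S1pr3 and Timp1 held none of the 4 motifs, and that of Osmr held an AP-1 match from position 4 (7.23% of all windows). A match describes letters only and shows no binding.

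Each library held between 12.9 and 20.4 M counts in all. The labels number the libraries in an order that follows the groups, with 39 to 57 for young inputs, 1 to 23 for old early inputs and 25 to 38 for the old late animals, so this order and the groups cannot be told apart. Old early replicate 5 had the highest summed levels of choroid plexus (4177 CPM), erythroid (2265 CPM) and neutrophil (36.9 CPM) markers of all inputs, old early replicate 2 the lowest of neuron markers (9377 CPM), and young replicate 6 the highest choroid plexus level of its group (3131 CPM). Results that rest on these 3 libraries are given with and without them. Leaving them out was an alternative chosen after the values were seen. Some libraries that were kept had more choroid plexus RNA than young replicate 6, such as old early replicate 7 (3827 CPM). The choroid plexus sum ran from 66.5 to 3131 CPM in young, 70.4 to 4177 CPM in old early and 80.9 to 3539 CPM in old late inputs. Leaving out the 3 libraries thus does not remove this spread. Levels are CPM, the counts scaled to an equal effective library size. All 15 homeostatic astrocyte markers and all 10 neuron markers were detected in every group, and the astrocyte markers summed to 6699.95 to 7988 CPM across the inputs. The labels do not say whether libraries of a group differ by more than the animal, and p-values measure the spread between these samples. In whole tissue, a change in the number of cells of a type and in RNA per cell cannot be told apart.

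Old hippocampi, induced early or late, held more RNA of 5 of the 8 genes than young ones, all of which were induced early. Gfap, Vim, Serpina3n, Cd44 and S1pr3 rose, by 1.38-fold (S1pr3) to 1.78-fold (Gfap) in old early inputs and by 1.60-fold (Serpina3n) to 2.04-fold (Gfap) in old late inputs. Osmr and Timp1 were above the young mean but did not pass the test, and Lcn2 was not higher. All 8 genes passed the filter on low counts in the inputs, and a gene was called when edgeR's quasi-likelihood test gave it a Benjamini-Hochberg adjusted p under 0.05 over 14948 genes. Of all genes tested, 13% were called higher and 12.6% lower in old early inputs against young ones, and 17% higher and 17.5% lower in old late inputs. The median log2 fold change of the 8 genes was 0.53 in old early and 0.79 in old late inputs, against 0.01 and 0.01 over all genes. Both age comparisons use the same 10 young libraries, so the second is not an independent repeat of the first. No young animals were induced late, so old late against young inputs differ in age and induction together. Among early-induced animals, age and the time since induction cannot be told apart.

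**Figure D1:**
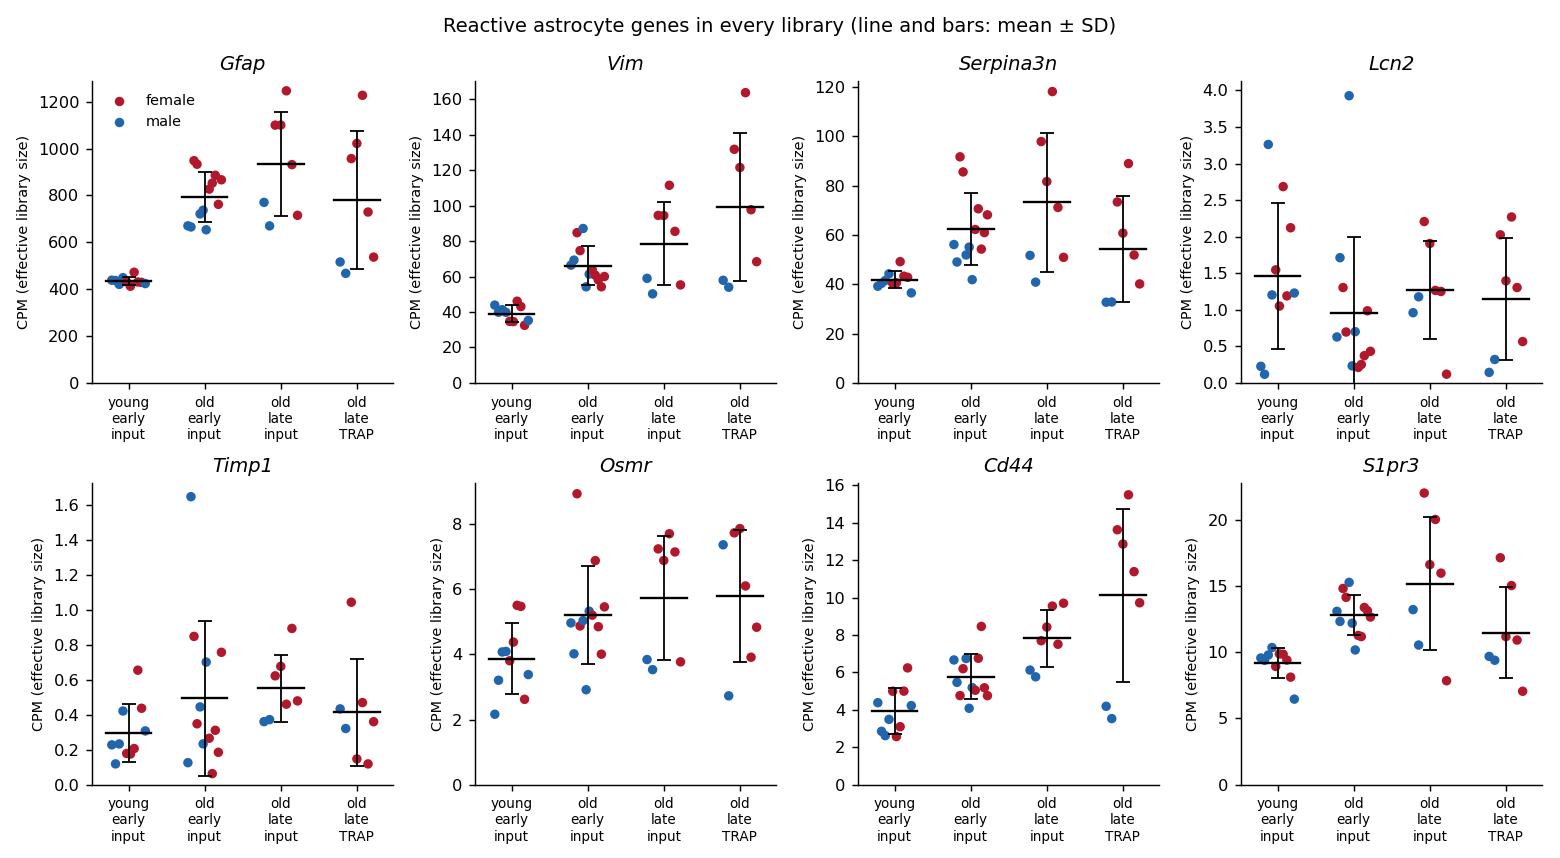
Level of each of the 8 genes in every library, in CPM of the effective library size on a linear axis that starts at 0, for young early, old early and old late inputs and old late TRAP. Points are libraries (red, female; blue, male), and lines and bars are the mean ± SD (a bar that would pass below 0 ends there). Every old input lies above every young input for Gfap and Vim, while the groups overlap for Lcn2 and Timp1.

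The 2 intermediate filament genes separated the ages without overlap. Gfap, at chr11:102887336-102897200 on the minus strand, encodes glial fibrillary acidic protein, the filament that defines astrocytes in histology. Gfap ranged from 413 to 472 CPM in young inputs (median 431, n = 10). Its old early inputs lay between 654 and 948 CPM (median 795, n = 12), and in old late inputs it was 771, 670.2, 1100.2, 1100.4, 1247, 932 and 715 CPM in replicates 1 to 7. The lowest old library was thus 1.38 times the highest young one, and the young libraries were close together (435 ± 16.7 CPM, SD, n = 10) while the old ones spread widely (794 ± 106 CPM, SD, n = 12, and 934 ± 223 CPM, SD, n = 7). The log2 fold change was 0.84 ± 0.07 (SE) in old early inputs (edgeR, adjusted p = 9.64e-10) and 1.03 ± 0.08 in old late inputs (edgeR, adjusted p = 2.26e-10). Among all 14948 genes Gfap had the 5th smallest p in the first comparison and the 3rd smallest in the second.

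Vim, at chr2:13574311-13582826 on the plus strand, encodes vimentin, the filament that joins GFAP in reactive and immature astrocytes and is the main one of endothelial, meningeal and myeloid cells. Vim ranged from 32.5 to 46.1 CPM in young inputs (median 39.9, n = 10), from 54.2 to 87.1 CPM in old early inputs (median 62.6, n = 12), and from 50.3 to 112 CPM in old late inputs (median 85.5, n = 7). Again no old library reached down into the young range. The log2 fold change was 0.75 ± 0.11 in old early (edgeR, adjusted p = 1.52e-05) and 0.97 ± 0.13 in old late inputs (edgeR, adjusted p = 1.63e-06). Complete separation with the old group higher was seen for 0.963% of genes in old early and 2.83% in old late inputs against young ones.

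Of the 3 genes that encode secreted proteins, 1 rose. Serpina3n, at chr12:104406708-104414329 on the plus strand, encodes a serine protease inhibitor that is among the most strongly induced astrocyte genes in several injury models. Serpina3n ranged from 36.5 to 49.1 CPM in young inputs (median 41.04, n = 10) and from 41.8 to 91.6 CPM in old early inputs (median 58.5, n = 12). In old late inputs it was 51.7, 40.8, 97.8, 81.6, 118, 71.1 and 50.9 CPM in replicates 1 to 7. Of the old libraries, 10 of 12 old early and 6 of 7 old late lay above the young range, and the lowest of each old group lay inside it. The log2 fold change was 0.52 ± 0.11 in old early (edgeR, adjusted p = 0.00121) and 0.68 ± 0.13 in old late inputs (edgeR, adjusted p = 0.00021). Serpina3n belongs to a cluster of near-identical Serpina3 genes, between which divided reads could be shared. Of 10 cluster paralogs 2 were tested in the inputs, and neither was called.

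Lcn2, at chr2:32384637-32387739 on the minus strand, encodes lipocalin 2, a protein that binds iron-carrying siderophores and is secreted by reactive astrocytes and neutrophils. Lcn2 was low, with 2 to 56 counts per library in the young inputs. It ranged from 0.12 to 3.26 CPM in young (median 1.22, n = 10), 0.21 to 3.93 CPM in old early (median 0.66, n = 12) and 0.12 to 2.21 CPM in old late inputs (median 1.25, n = 7). The groups overlapped almost completely, and the log2 differences from young were -0.66 ± 0.46 (edgeR, adjusted p = 0.304) and -0.16 ± 0.52 (edgeR, adjusted p = 0.838). The highest value of any library, 3.93 CPM, was in old early replicate 5, which also had the highest neutrophil, erythroid and choroid plexus sums given above. Without the 3 libraries that stood apart, a setting chosen after the values were seen, the old early difference in Lcn2 was -1.48 (edgeR, adjusted p = 0.0182). Old early replicates 5 and 2 ranked 1 and 2 for Lcn2 in their group, and young replicate 6 ranked 8 in its own. Leaving them out therefore moves this difference downward, so that call is not read as a fall with age. The part of these other cells in Lcn2 was not tested.

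Timp1, at chrX:20870166-20874737 on the plus strand, encodes an inhibitor of matrix metalloproteinases and was the lowest of the 8 in CPM. It had 1 to 25 counts in each of the 29 inputs and lies over Syn1, an abundant neuronal gene on the opposite strand, so without stated strand handling its counts are uncertain. Timp1 averaged 0.30 ± 0.16 CPM in young (SD, n = 10), 0.49 ± 0.44 CPM in old early (SD, n = 12) and 0.55 ± 0.19 CPM in old late inputs (SD, n = 7). The highest value, 1.65 CPM, was in old early replicate 2, 1 of the 3 libraries that stood apart. The log2 differences of 0.71 ± 0.40 (edgeR, adjusted p = 0.196) and 0.89 ± 0.45 (edgeR, adjusted p = 0.129) did not pass the test, and the first was 0.18 without those 3 libraries.

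Of the 3 receptor genes, Cd44 and S1pr3 rose and Osmr was on the border of the threshold. Cd44, at chr2:102811142-102901665 on the minus strand, encodes the main hyaluronan receptor, which marks a class of fibrous and reactive astrocytes and also many leukocytes. Cd44 ranged from 2.57 to 6.24 CPM in young (median 3.86, n = 10) and from 4.08 to 8.46 CPM in old early inputs (median 5.33, n = 12), and was 6.12, 5.76, 7.69, 8.42, 9.55, 7.50 and 9.70 CPM in old late replicates 1 to 7. Only 4 of 12 old early libraries but 5 of 7 old late libraries lay above the young range. The log2 fold change was 0.53 ± 0.14 in old early (edgeR, adjusted p = 0.00497) and 0.92 ± 0.16 in old late inputs (edgeR, adjusted p = 4.4e-05).

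S1pr3, at chr13:51408618-51422797 on the plus strand, encodes a G protein-coupled receptor for sphingosine-1-phosphate. S1pr3 ranged from 6.45 to 10.3 CPM in young (median 9.48, n = 10), from 10.2 to 15.3 CPM in old early (median 12.9, n = 12) and from 7.84 to 22.0 CPM in old late inputs (median 16.0, n = 7). The groups barely overlapped, with 11 of 12 old early and 6 of 7 old late libraries above the young range. The exception among old late libraries was replicate 7, at 7.84 CPM. The log2 fold change was 0.47 ± 0.12 in old early (edgeR, adjusted p = 0.00411) and 0.69 ± 0.14 in old late inputs (edgeR, adjusted p = 0.000256).

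Osmr, at chr15:6813577-6874313 on the minus strand, encodes the oncostatin M receptor subunit that pairs with gp130. Osmr ranged from 2.16 to 5.51 CPM in young (median 3.94, n = 10), from 2.92 to 8.93 CPM in old early (median 5.00, n = 12) and from 3.53 to 7.71 CPM in old late inputs (median 6.89, n = 7). Of the old libraries, 2 of 12 old early and 4 of 7 old late lay above the young range. The log2 differences were 0.39 ± 0.16 (edgeR, adjusted p = 0.0641) and 0.45 ± 0.18 (edgeR, adjusted p = 0.0515). The old early difference passed the test without old early replicate 6 (edgeR, adjusted p = 0.0403) or 11 (edgeR, adjusted p = 0.043). The old late difference passed it without old late replicate 2 or 7, young replicate 3, 4, 7 or 8, or old early replicate 3 or 6 (edgeR, adjusted p = 0.021 to 0.0458), and in DESeq2 (adjusted p = 0.0376).

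**Figure D2:**
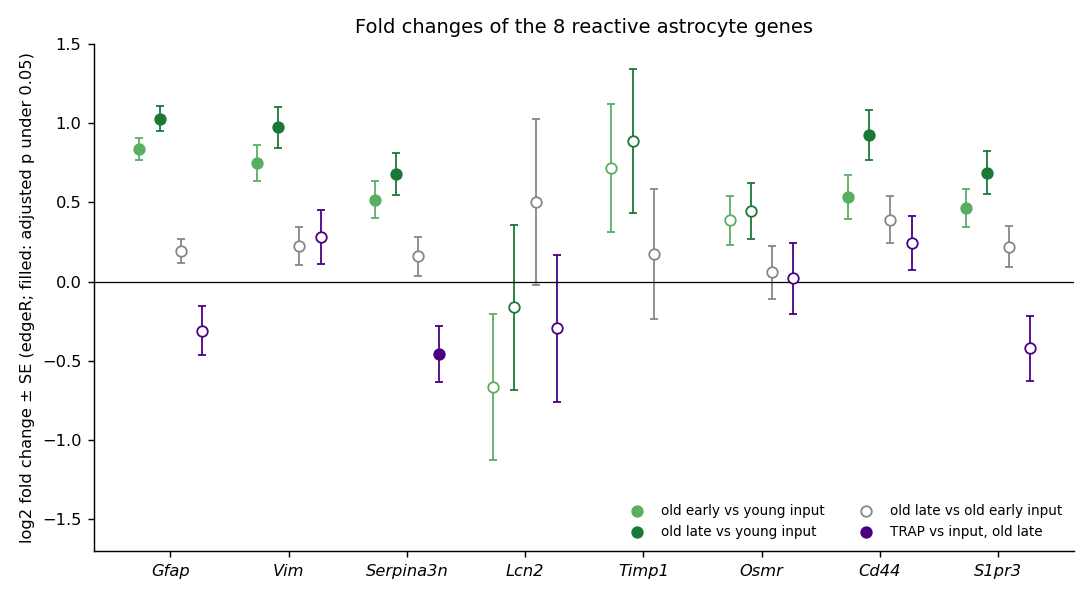
Log2 fold change with its standard error, from edgeR, of each of the 8 genes in 4 comparisons, with filled points where the adjusted p was under 0.05 and open points where it was not. Gfap, Vim, Serpina3n, Cd44 and S1pr3 are filled in both age comparisons, no gene is filled for old late against old early inputs, and only Serpina3n is filled for TRAP against input. Timp1 has no TRAP value because it did not pass the filter there.

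Per kilobase of exon, Gfap was far above the rest, with a mean of 103 CPM per kb in young inputs. It was followed by Serpina3n at 20.2, Vim at 8.25 and S1pr3 at 2.05 CPM per kb. Cd44 and Lcn2 (0.58 and 0.56), and Timp1 and Osmr (0.33 and 0.32), lay within each other's spread. In old late inputs the order of the first 4 was the same, at 221, 35.4, 16.6 and 3.40 CPM per kb, and Cd44 reached 1.15 CPM per kb.

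Homeostatic astrocyte genes, used here as general markers of the cells, had a smaller median difference. Whether they are themselves free of reactivity was not tested. Of 15 homeostatic astrocyte markers, 5 were called higher and none lower in old early inputs, and 6 higher and none lower in old late inputs, with medians of 0.04 and 0.11 log2. Sox9, a transcription factor of astrocytes (0.39 and 0.57), Aldoc, the brain form of aldolase (0.29 and 0.29), and Aldh1l1, a folate enzyme (0.21 and 0.32), were among those called in both. Aqp4, the astrocyte water channel, and Kcnj10, a potassium channel, did not pass the test in either. Scaled to the 15 homeostatic markers instead of to all genes, the same 5 reactive genes were called in both comparisons, with Gfap at 0.75 and 0.90 and Vim at 0.67 and 0.84 log2. That scaling shifted the median of all genes by -0.08 and -0.12 log2, and the share of all calls that were higher in old inputs went from 50.7% and 49.2% to 17.4% and 16.5%. Markers of other cell types moved with age too. Of 14 microglia markers, 13 were called higher in old early and 14 in old late inputs (summed level 490.4 to 569 CPM in young, 648 to 777 CPM in old early and 689 to 1006 CPM in old late), and of 10 oligodendrocyte markers, 8 and 9. Of 10 endothelial markers 2 and 3 were called higher, of 8 fibroblast and meningeal markers none in either, and of 4 erythroid markers 2 and 4. Of 10 neuron markers, 1 was called higher and 2 lower in old early inputs, and none higher and 5 lower in old late inputs. The share of these cells in the levels of Vim, Cd44 and the others was not tested.

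Induction late instead of early made no called difference to these genes in old inputs. edgeR called 0 of the 8 genes and 5 of 14948 genes (0.0334%) between old late and old early inputs, and DESeq2 called 0 of the 8 and 58 genes in all. The count over all genes was 164 without old early replicate 5, 76 without replicate 2, 29 without replicate 10, and 838 without the 3 libraries that stood apart, again with 0 of the 8. At an unadjusted p under 0.05, 2 of the 8 were higher in old late inputs: Gfap by 0.19 ± 0.08 log2 (edgeR, adjusted p = 0.312) and Cd44 by 0.39 ± 0.15 log2 (edgeR, adjusted p = 0.295). All 8 estimates were above 0, from 0.06 (Osmr) to 0.50 (Lcn2), with a median of 0.21 against 0.00 over all genes. In the same comparison choroid plexus markers had a median of 0.89 and erythroid markers of 0.54, with none called. Within old late inputs, replicates 3, 4 and 5 each held 1 of the 3 highest values for 7 of the 8 genes, and these 3 were female. Both males and female replicate 7 were the 3 lowest for Gfap, Vim, Serpina3n, Osmr and S1pr3.

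The TRAP libraries showed how much of this RNA accompanied the microglial pulldown. Against input of the same 7 animals, Gfap, Serpina3n and S1pr3 were lower and Vim was higher in the comparison that respects the pairing of animals, while Osmr, Cd44 and Lcn2 were not called. That comparison called 63.9% of all genes, so the number of calls does not set these genes apart. The 14 microglia markers were enriched by a mean of 4.13 log2 (17.6-fold) and the 15 homeostatic astrocyte markers were depleted by a mean of 0.56 log2 (0.68-fold), each of them called lower. Single homeostatic markers ran from -1.14 (Sox9) to -0.12 log2 (Slc1a2) in the mean over animals. The means of Gfap (-0.31), S1pr3 (-0.38) and Serpina3n (-0.43) lay inside that range. Gfap was 516, 468, 957, 1022, 1227, 729 and 537 CPM in TRAP replicates 1 to 7. It was below the input of the same animal in all 7. The ratio was closest to 1 in females 3, 4 and 5 and lowest in the 2 males, at 0.67 and 0.70 of input. Vim was 57.9, 54.0, 132, 122, 164, 97.7 and 68.4 CPM, above input in 6 of 7 animals. Serpina3n was 32.7, 32.8, 73.3, 60.7, 88.9, 51.8 and 40.1 CPM, below input in all 7. The order of animals was nearly that of the inputs, with females 3, 4 and 5 the 3 highest for each of these 3 genes. S1pr3 was 9.68, 9.39, 17.1, 11.2, 15.02, 10.9 and 7.05 CPM, also below input in all 7. Osmr ranged from 2.73 to 7.86 CPM (median 6.10) and was above input in 4 of 7 animals. Lcn2 ranged from 0.14 to 2.27 CPM (median 1.305) and was above input in 3 of 7, so that neither gene had a common direction.

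In the fit without animals, over 14596 genes of which 59.2% were called (30.4% higher, 28.8% lower), 7 of the 8 genes could be tested and 1 was called, Serpina3n at -0.46 ± 0.18 log2 (edgeR, adjusted p = 0.0337). That call was lost without input replicate 1, 3 or 5 or TRAP replicate 1, 2, 4, 6 or 7 (edgeR, adjusted p = 0.0544 to 0.0884). Gfap (-0.31, edgeR, adjusted p = 0.0983), S1pr3 (-0.42, edgeR, adjusted p = 0.0882) and Vim (0.28, edgeR, adjusted p = 0.163) did not pass. Gfap passed without TRAP replicate 5 (edgeR, adjusted p = 0.012) or input replicate 7 (0.0321), S1pr3 without TRAP replicate 3 (0.041) or input replicate 7 (0.0111), and Vim without TRAP replicate 7 (0.038). With the animal as a block, 63.9% of all genes were called and 4 of the 7: Serpina3n at -0.45 (edgeR, adjusted p = 1.1e-06), Gfap at -0.33 (edgeR, adjusted p = 0.000342), S1pr3 at -0.41 (edgeR, adjusted p = 0.000594) and Vim at 0.27 (edgeR, adjusted p = 0.00203). The count of 4 in 7 lies near the share of all genes and does not set the 4 apart. Lower values in all 7 animals were found for 22.4% of all genes.

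**Figure D3:**
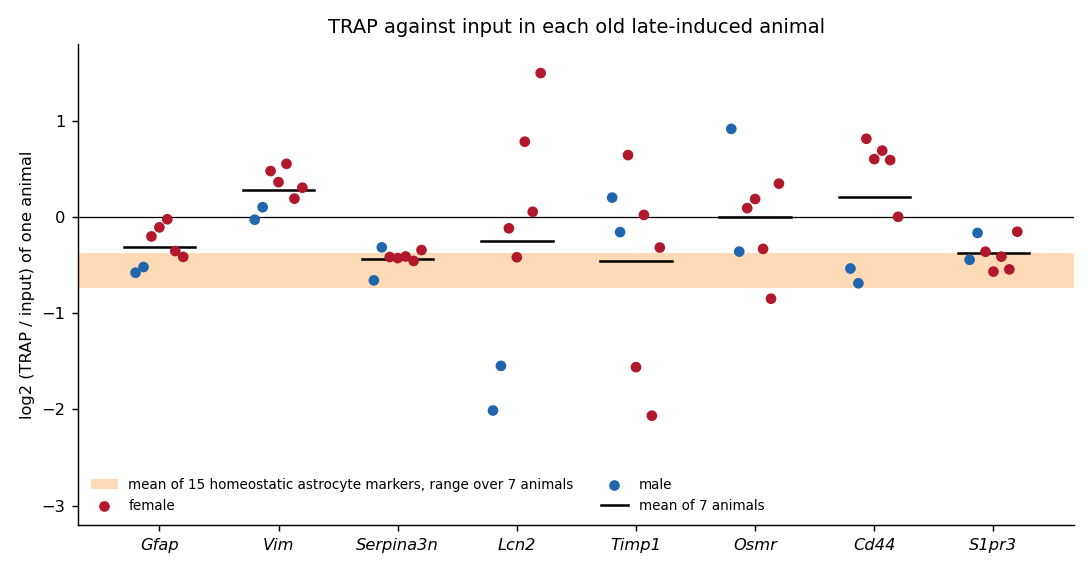
Log2 ratio of TRAP to input in each of the 7 old late animals (red, female; blue, male) for the 8 genes, with the mean of 7 animals as a line. The shaded band is the range over the 7 animals of the mean ratio of 15 homeostatic astrocyte markers (-0.74 to -0.37). Serpina3n lies in or near the band, and Gfap and S1pr3 lie in it in some animals and above it in others. Vim lies above it in every animal, and Lcn2 and Timp1 scatter most.

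The signs of these differences depended on the scaling. Scaled to the 15 homeostatic markers, 3 of the 7 tested genes were called higher in TRAP, where 74% of all genes were, so this count does not set the 3 apart. Vim was higher in TRAP by 0.84 log2 (edgeR, adjusted p = 1.05e-05), Cd44 by 0.80 (edgeR, adjusted p = 9.37e-05) and Osmr by 0.58 (edgeR, adjusted p = 0.0181), and with the animal block, where 76.8% of all genes were called higher, Gfap was higher too, by 0.24 (edgeR, adjusted p = 0.00583). Serpina3n (0.10), S1pr3 (0.15) and Lcn2 (0.25) did not pass in that scaling, and their sign there is opposite to that in the usual scaling. The median of all genes in TRAP against input was -0.02 log2 in the usual scaling and 0.56 log2 in this one, and the share of all calls that were higher in TRAP was 51.4% and 96.6%. With scaling by the upper quartile or by library size that median was -0.16 and -0.13 log2, and 34% and 38.3% of calls were higher. Gfap, S1pr3 and Serpina3n were called lower in both without the block. So were 6372 and 5748 of all 14596 genes, so this count does not set the 3 apart. Microglia also express Vim and Cd44, and the part of tagged and untagged cells in these ratios was not tested. Cd44 was above input in 5 of 5 females, at 9.72 to 15.5 CPM in TRAP, though nearly equal to it in female replicate 7 (9.70 CPM in input, 9.72 CPM in TRAP). It was below input in 2 of 2 males, at 4.19 and 3.53 CPM, which are 58 and 44 counts. The mean ratio (0.21 ± 0.62 log2, SD, n = 7) lies between the means of females (0.54) and males (-0.61).

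In old animals the levels of Gfap and Serpina3n were higher in females than in males, and whether this passed a test depended on the tool and the libraries. In old early inputs Gfap ranged from 762 to 948 CPM in the 7 females and from 654 to 737 CPM in the 5 males. The share of all genes that separate these females from these males was not counted. In young inputs the sexes overlapped, at 435 ± 22.1 CPM in females (SD, n = 5) and 434 ± 11.6 CPM in males (SD, n = 5). Old late females ranged from 715 to 1247 CPM and the 2 males were at 771 and 670.2 CPM, so there the sexes overlapped. Serpina3n averaged 70.5 ± 13.6 CPM in old early females (SD, n = 7) and 50.8 ± 5.71 CPM in males (SD, n = 5), with 3 of 5 males below all females. The age difference of Gfap in early-induced animals was 0.99 log2 in females alone and 0.67 in males alone, and that of Serpina3n 0.70 and 0.33, each of them called in edgeR fits of 1 sex (adjusted p from 1.61e-06 to 0.0227). Vim rose by 0.77 log2 in females and 0.75 in males.

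The test of the difference itself, the interaction of age and sex in the 22 early-induced inputs, gave -0.32 ± 0.07 log2 for Gfap. This was the 3rd smallest p of 14953 genes (unadjusted p = 8.37e-05), but its adjusted p in edgeR was 0.222 and edgeR called 0 genes (0%), with 2301 at an unadjusted p under 0.05. DESeq2 called 21 genes, among them Gfap (adjusted p = 0.0144). Without old early replicate 6, a male, edgeR called 453 genes, with Gfap among them at -0.35 (adjusted p = 0.0229). Serpina3n had an interaction of -0.37 ± 0.15 (edgeR, adjusted p = 0.261).

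Over all 29 inputs, edgeR called 0 of the 8 genes and 26 genes in all (0.174%) between the sexes. Gfap was lower in males by 0.24 log2 (-0.24 ± 0.06, edgeR, adjusted p = 0.118), Serpina3n was at -0.41 ± 0.10 (edgeR, adjusted p = 0.108) and Osmr at -0.46 ± 0.14 (edgeR, adjusted p = 0.244), and these 3 had an unadjusted p under 0.05. DESeq2 called 2, Gfap (adjusted p = 0.0199) and Serpina3n (adjusted p = 0.0453), and so did edgeR without old late replicate 7 (adjusted p = 0.0336 and 0.0475). In the 19 old inputs alone, an alternative chosen after the values were seen, Gfap was at -0.38 (edgeR, adjusted p = 0.0352). In old early inputs the choroid plexus sum averaged 465.96 CPM in females and 2196 CPM in males, the erythroid sum 237 and 673 CPM, and the homeostatic astrocyte sum 7391 and 7407 CPM. The part of these in the sex difference was not tested.

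Among animals of the same group, 5 of the genes varied together and Cd44 did not. Deviations of log2 CPM from the group mean over the 29 inputs were compared for the 7 genes above 0.5 CPM, in 21 pairs, by permutation within groups. Of the 21 pairs, 12 had an adjusted permutation p under 0.05, and the share over pairs of all genes was not counted. All 10 pairs among Gfap, Vim, Serpina3n, Osmr and S1pr3 were among them (adjusted permutation p at most 0.021). Pearson's r of these 10 ran from 0.52 to 0.93 and Spearman's rho from 0.56 to 0.87. The 5 genes were grouped by these same values, so 10 of 10 is a description and not a test. Gfap and Serpina3n were the closest (r = 0.93, rho = 0.87, permutation p = 1e-05 for both, the smallest possible, adjusted 0.00021). Their r was 0.72 in young, 0.85 in old early and 0.98 in old late inputs, and 0.89 over all without the 2 libraries farthest from the median of Gfap. Vim and S1pr3 had r = 0.77 (rho = 0.78, permutation p = 8e-05 and 9e-05, adjusted 0.00084 and 0.0007) and 0.71 without 2 libraries.

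Gfap and Vim had r = 0.68 (rho = 0.59, permutation p = 0.0043 and 0.00821, adjusted 0.01 and 0.0172), but 0.61 in young, 0.15 in old early and 0.99 in old late inputs. Without 2 libraries r was 0.53 with an adjusted permutation p of 0.0623, so that this relation rests in part on those libraries. Across the 10 pairs the median r was 0.50 in young, 0.48 in old early and 0.94 in old late inputs. Cd44 passed with none of the other 6 genes (r from -0.05 to 0.20, rho from 0.00 to 0.19, lowest adjusted permutation p = 0.373). Lcn2 passed with Vim (r = 0.41, rho = 0.44, permutation p = 0.0221 and 0.0148, adjusted 0.0387 and 0.0273) and S1pr3 (r = 0.45, rho = 0.44, permutation p = 0.0128 and 0.0156, adjusted 0.0244 and 0.0273). The pair of Lcn2 and S1pr3 did not pass without 2 libraries (r = 0.31, adjusted permutation p = 0.105), while Lcn2 and Vim did (r = 0.49, adjusted permutation p = 0.0314). With sex means removed as well, 8 of the 10 pairs among the 5 genes passed by r. Gfap with Osmr (r = 0.46, adjusted permutation p = 0.0519) and Osmr with S1pr3 (r = 0.46, adjusted permutation p = 0.0575) did not, and Lcn2 passed with Vim (r = 0.54, adjusted permutation p = 0.0207) and Osmr (r = 0.49, adjusted permutation p = 0.033).

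**Figure D4:**
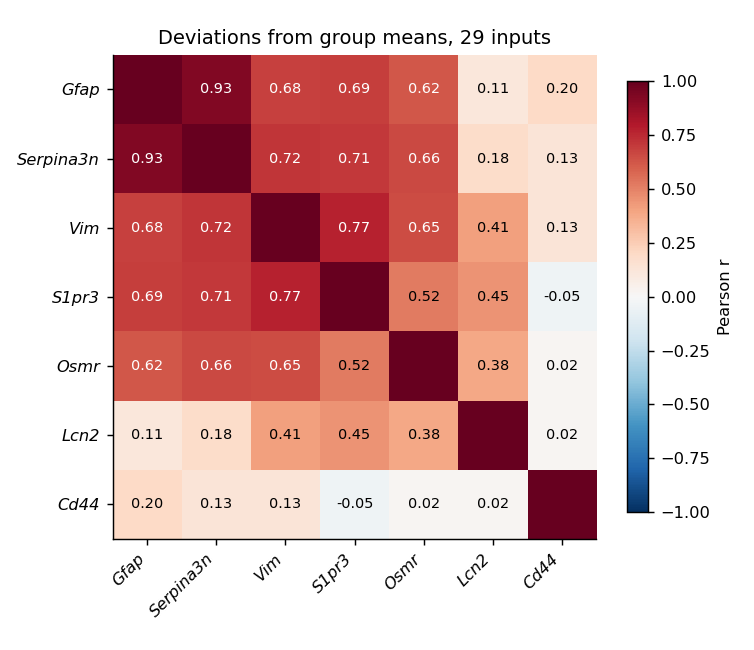
Pearson's r between the deviations of log2 CPM from group means over 29 inputs for each pair of 7 genes, coloured from -1 (blue) to 1 (red). The block of Gfap, Serpina3n, Vim, S1pr3 and Osmr runs from 0.52 to 0.93, and the row of Cd44 runs from -0.05 to 0.20.

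The genes most like each of these in the same deviations, among 13935 genes above 1 CPM, are given as a description. Closest to Gfap were Serpina3n (r = 0.93), Mpeg1, a pore-forming protein of macrophages and microglia (r = 0.89), and Cd68, a lysosomal protein of the same cells (r = 0.87). Closest to Serpina3n after Gfap were C4b, complement component 4 (r = 0.90), and Mpeg1 (r = 0.86). Closest to Vim were Lyz2, lysozyme of myeloid cells (r = 0.85), C3, complement component 3 (r = 0.83), and Apod, apolipoprotein D (r = 0.81). C3 and C4b were also near S1pr3 (r = 0.78 and 0.78), after Wipf1 (r = 0.84). Osmr was closest to Grn, progranulin (r = 0.69), Gpr84 (r = 0.69) and C4b (r = 0.69), Cd44 to Pphln1 (r = 0.76), Ntm (r = 0.64) and Fermt3 (r = 0.64), and Lcn2 to Ccdc12 (r = 0.75), Dus2l (r = 0.74) and Dpy30 (r = 0.73).

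Other genes of the astrocyte response were taken from lists, in which Nes, Socs3, Stat3, Clcf1 and Sphk1 each stand more than once. The counts are read against the shares of all genes called, which were 13% higher and 12.6% lower in old early inputs, 17% and 17.5% in old late inputs, and 30.4% and 28.8% in TRAP. Of 8 further genes reported to rise in most kinds of reactive astrocyte, 3 rose and none fell in old early inputs, and 5 rose and none fell in old late inputs (median log2 0.44 and 0.83). Among them were Aspg, an asparaginase (1.04 and 1.21 log2), Nes, the filament nestin (0.59 and 0.86), and in old late inputs Socs3, the feedback inhibitor of STAT3 signalling (0.90). Of the same 8, 7 were tested in TRAP against input, where 5 were higher and none lower (median 0.61). Of 12 genes of the neuroinflammatory (A1-type) set, 8 rose in each comparison and 1 and 2 fell (median 0.67 and 0.93). The largest were C3 (1.75 and 2.29), Fbln5, a matrix protein (0.97 in old early), and Gbp2, an interferon-induced GTPase (0.92 and 1.22), with H2-D1, an MHC class I chain (1.10 in old late). Of the same 12, 9 were higher and 2 lower in TRAP than in input, the higher ones led by Psmb8, a proteasome subunit (3.61), Srgn, the granule proteoglycan serglycin (3.27), and H2-D1 (3.10). Of 10 tested genes of the ischaemia (A2-type) set, 3 and 4 rose and none fell (median 0.32 and 0.39), led by Cd14, an endotoxin co-receptor (0.55 and 0.99), Tm4sf1 (0.36 and 0.41) and S100a10 (0.27 and 0.36), and in TRAP 3 were higher and 3 lower, with Cd14 at 4.01.

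The next lists hold partners of the receptors and secreted members. The age counts of the oncostatin M, hyaluronan and Timp lists lay close to the shares of all genes and set none of these lists apart. The TRAP counts of the ischaemia (A2-type), sphingosine-1-phosphate and hyaluronan lists also lay close to those shares and set none of them apart. Of 13 tested genes of oncostatin M and gp130 signalling, 1 rose in old early inputs (Cntf, 0.60, named after its value was seen). In old late inputs 3 rose and 2 fell (median 0.02 in old early and 0.04 in old late), among them Socs3 and Tyk2, a Janus kinase (-0.42). In TRAP 11 of 15 were higher and 2 lower, led by the ligand gene Osm (3.72), the interleukin 6 receptor gene Il6ra (3.52) and Clcf1, a cytokine of the same family (2.92). The receptor gene Osmr itself was at 0.02 ± 0.23 log2 (SE) in TRAP against input, and at -0.13 with upper quartile scaling. Of 11 sphingosine-1-phosphate genes, 4 rose and 1 fell in old early inputs and 5 rose and 1 fell in old late inputs (median 0.21 and 0.22). S1pr5, a receptor of oligodendrocytes (0.52 and 0.67), and S1pr2 (0.62 and 0.64) rose, and Spns2, an exporter of the lipid (-0.31 and -0.40), fell. In TRAP Sgpl1, the lyase that degrades the lipid (1.85), and S1pr4 (1.51) were higher and Sphk1, the kinase that makes it (-1.35), lower, among 4 higher and 3 lower.

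Of 13 tested hyaluronan genes, 2 rose and 1 fell in old early inputs and 3 rose and 2 fell in old late inputs (median -0.07 and 0.01). These included Spp1, osteopontin, a ligand of CD44 (1.14 and 1.50), Msn, which links CD44 to actin (0.39 and 0.64), and Vcan, a hyaluronan-binding proteoglycan, lower in old early inputs (-0.36). In TRAP Spp1 (3.30) and Msn (3.09) were higher and Vcan lower (-0.98), with 4 higher and 4 lower in all. Of 12 tested genes of Timp proteins and matrix metalloproteinases, 1 rose and 1 fell in each age comparison (median 0.05 and 0.11). These were Mmp12, a macrophage elastase (5.88 and 6.63, average log2 CPM of -0.87 in the inputs), and Mmp17 (-0.19 and -0.32). In TRAP 6 were higher and 4 lower. Of 9 genes of lipocalin 2 receptors and iron handling, 4 and 3 rose and 1 and 2 fell (median 0.01 and -0.03). Trf, transferrin (0.74 and 1.01), and Ftl1, ferritin light chain (0.41 in old early), rose, and Mc4r, a receptor proposed for lipocalin 2 (-0.52 and -0.74), and Lrp2 (-1.07 in old late) fell. In TRAP 2 were higher and 5 lower. Of 11 other intermediate filament genes, 3 rose and 1 fell in each (median 0.01 and 0.03), with Prph, peripherin (0.75 and 0.79), Nes and Lmna, lamin A (0.40 in old late), rising. In TRAP 2 were higher and 4 lower, with Nes at 1.72. Lmna was the only gene of these lists called between old late and old early inputs (0.22, edgeR, adjusted p = 0.026). All fold changes of this and the preceding 2 paragraphs are log2 values called by edgeR at an adjusted p under 0.05 unless an SE is given.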

How the data were processed

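Whole-tissue inputs and TRAP libraries of mouse hippocampus were compared. The values are estimated counts, deposited by the authors in 1 table and marked raw per the file headers, in which 77.4% of nonzero values were not whole. The build mm10 and DESeq2 are named per the submitters' processing notes, and the aligner, counting tool and strand handling are not given in the sources used here. Groups, sex and animal numbers came from the labels.

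Estimated counts were rounded and tested with edgeR 4.0.16 in R 4.3.3 (filterByExpr by group with a minimum count of 10, TMM, quasi-likelihood test, Benjamini-Hochberg over all genes tested). The SE was derived from the F statistic. Age, induction and sex came from 1 fit of 29 inputs with group and sex, the interaction from 22 early-induced inputs, and TRAP from 14 libraries with sex. Only the main edgeR fits for inputs, TRAP and the interaction were tested on simulated data. CPM used effective library sizes over all 36 libraries, log2 CPM a prior count of 2, and lengths the exon union of GENCODE M21. Correlations used 100000 permutations within groups, two-sided, in scipy 1.17.1.

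TRAP and input were paired by the animal number in the labels. Deviations of an animal's libraries correlated at 0.308 to 0.47 across genes, against a median of -0.09 between different animals.

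The 8 genes and all 22 lists (222 of 223 genes matched) were chosen with earlier results of these data known. All 8 genes are named. From each pathway list at most 3 called genes per comparison were named, by the largest log2 fold change with an average log2 CPM over 0, and all where fewer than 3 were called; 1 gene named by this rule is not reported here. Alternatives were other scalings, no filter, DESeq2 1.42.0, limma 3.58.1 voom, other covariates, 1 sex, subsets of groups and leaving out libraries. Promoters came from RefSeq (GRCm38.p6), in which all 8 genes matched.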

Additional observations from a re-analysis of the deposited data

Results flagged for a closer look

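Serpina3n in TRAP against input was lowest in old late replicate 1, a male, at -0.66 log2, set apart from the next animal at -0.46 by more than the other 6 differed among themselves. Lcn2 was lowest among old late inputs in replicate 7, at -2.03 log2 CPM against 0.12 in the next library, which is 2 counts. S1pr3 was lowest among young inputs in replicate 10, at 2.72 log2 CPM against 3.04 in the next. Gaps were examined in 32 groups of values and 3 stood out, where chance gives 1.6. Cd44 in TRAP against input was higher in every female (mean 0.54 log2, n = 5), though by only 0.003 log2 in replicate 7. It was lower in both males (mean -0.61, n = 2), and this difference between the sexes was not tested.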

How the results depend on the processing

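For single genes, 471 of 533 values under other settings kept their direction and their side of the threshold, and so did 1134 of 1200 without 1 library. Gfap was called higher with age in both comparisons in every alternative run. Lcn2 had 2 to 56 counts per young input (CPM with a coefficient of variation of 67.8%) and Timp1 1 to 25 counts per input.

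In old early against young inputs, females alone gave 1198 calls over all genes and 3 of the 8, and males alone 2395. Lcn2 was at 0.22 in males alone. In old late against young inputs, females alone gave 2787 calls and males alone 1348, with 1 of the 8. Between old late and old early inputs, calls were 0 with homeostatic astrocyte scaling and 0 with only the 2 groups in the fit, 58 by DESeq2, 182 in females alone, 838 without the 3 libraries that stood apart, and 0 to 164 without 1 library (164 without old early replicate 5, 76 without replicate 2, 29 without replicate 10). Lcn2 in old late against young inputs ran from -0.37 to 0.021 without 1 library.

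Between the sexes, DESeq2 called 63 genes and 2 of the 8, early-induced inputs alone 12, young inputs alone 11, and old inputs alone 1 of the 8. Without 1 library, 17 to 32 genes and 0 to 2 of the 8 were called. Vim changed sign in early-induced (0.063) and young inputs (0.070), Lcn2 with voom (-0.21), in young inputs (-0.50) and without the 3 libraries (-0.44), and Timp1 with voom (-0.067) and without the 3 libraries (-0.47). Without 1 library Lcn2 ran from -0.15 to 0.36 and Timp1 from -0.36 to 0.16. The interaction gave 21 calls with DESeq2, 1 of them among the 8, and 0 to 453 calls (453 without old early replicate 6) with 0 to 1 of the 8 without 1 library. With upper quartile and library size scaling it was 0.012 and 0.0085 for Vim, 0.0225 and 0.0223 for Osmr, 0.0069 and 0.0034 for S1pr3, and with homeostatic astrocyte scaling 0.0068 for Osmr. Without 1 library it ran from -0.12 to 0.059 for Vim, -0.13 to 0.14 for Osmr and -0.12 to 0.049 for S1pr3.

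In TRAP against input, the replicate block (pairing by animal) called 4 of the 7 genes tested and, with homeostatic astrocyte scaling, also 4. Upper quartile, library size and homeostatic astrocyte scaling each called 3, and the fit with no sex covariate 0. Without 1 library 0 to 3 were called. With homeostatic astrocyte scaling, without and with the block, Gfap was at 0.25 and 0.24, Serpina3n at 0.10 and 0.12, Lcn2 at 0.25 and 0.34, and S1pr3 at 0.15 and 0.16. Lcn2 was at 0.13 in females alone. Osmr was at -0.13 with upper quartile scaling, -0.090 with library size, -0.069 with voom, -0.0059 with no sex covariate, -0.13 in females alone, -0.0097 with the block, and -0.18 to 0.12 without 1 library. The cause was not tested in any of these.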
